A study of Homo sapiens with 8 samples.

Results

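The NuRD complex was followed here through 120 guides, 10 for each of the 12 genes CHD3, CHD4, CHD5, HDAC1, HDAC2, MTA1, MTA2, MTA3, MBD2, MBD3, GATAD2A and GATAD2B. They were all the guides listed under these gene names, out of 7856 guides in the library, of which 7776 target a gene and 80 are non-targeting controls. NuRD genes below means these 12. RBBP4 and RBBP7, histone-binding subunits that NuRD shares with other complexes, were not among them and are given further below. The cells were T1-160, a Taxol-resistant derivative of the triple-negative breast cancer line SUM159PT that was made by stepwise exposure to rising Taxol, and they expressed Cas9. Every library came from T1-160-Cas9 cells infected with the chromatin-focused EPIKOL guide library at 1000x representation and an MOI of 0.4 and selected for 4 days with 5 µg/ml puromycin together with 20 µM verapamil, an inhibitor of the efflux pump ABCB1. AP is the pool of cells right after this selection (2 libraries, replicates 1 and 3), and the other groups were grown from it to 16 population doublings in DMSO (3 libraries) or in 160 nM Taxol (3 libraries). The guides were counted in genomic DNA, so a count reports how many cells carried a guide, and neither the cut at its site nor the loss of the protein was measured in these files. T1-160 is a single resistant line, and nothing in the labels says whether the replicates were separate infections or cultures. The limma p-values therefore measure the spread between these libraries, which may be technical. The p-values of the gene rank test measure how far the guides of a gene rank together, with guides treated as independent.

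NuRD joins a nucleosome remodelling ATPase and a histone deacetylase in one complex that binds chromatin and mostly keeps genes low or fine-tunes them. The ATPase is CHD3, CHD4 or CHD5, which exclude each other, and HDAC1 and HDAC2 remove acetyl groups from histone tails. The MTA proteins scaffold the deacetylases. MBD2 and MBD3 are mutually exclusive subunits, of which MBD2 binds methylated CpG, and GATAD2A and GATAD2B bridge the MBD protein to the ATPase. In breast cancer, MTA1 is known for its link to metastasis.

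The libraries held 2045984 to 11771418 reads, or 260.4 to 1498 reads per guide, recovered from the fixed step of the normalized values. NuRD guides made up 1.51% to 1.80% of a library. In Taxol 2 and Taxol 3, the shallowest libraries, 19 and 22 of the 120 guides had fewer than 100 reads, against at most 7 in any other library, and the lowest count was 15 reads. The 10 most abundant guides of all genes took 6.23% to 10.6% of each Taxol library and at most 2.80% of the others. Guide values are normalized counts as deposited, a gene value is the mean of log2(normalized count + 1) over its guides, and a log2 difference is a difference of such means with the SD between libraries. Each of the 3 comparisons was scaled on its own, so a library has other values in another comparison.

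Taxol and DMSO were compared to ask which knockouts changed in abundance under the drug. MTA2 had the highest log2 difference of the NuRD genes (0.61) and HDAC2 the lowest (-0.19), and neither passed adjustment. The gene test was robust rank aggregation (RRA) of the limma ranks of a gene's guides, and at a Benjamini-Hochberg adjusted p under 0.05 it called no NuRD gene, where 0.257% of the 779 genes tested were depleted and 0.128% enriched. At an unadjusted p under 0.05, MBD2 was depleted and MTA2 enriched, which is 1 of 12 in each direction beside 4.62% and 6.68% of all genes. MTA2 was also the single NuRD gene whose Taxol and DMSO libraries did not overlap (higher in Taxol, as in 6.29% of genes), and none was lower in every Taxol library, as 4.49% of genes were. limma on the gene means called none either, with MTA2 higher at an unadjusted p under 0.05 (4.62% of genes) and none lower (1.54%). Among the guides, 3 of 120 were lower and 1 was higher at an unadjusted limma p under 0.05, beside 1.57% and 2.03% of the guides of all genes, and no guide of any gene passed adjustment. With the replicate number as a block, which pairs Taxol and DMSO libraries, 3 guides were higher, beside 3.02% of the guides of all genes under the same block. The median log2 difference over the 12 genes was 0.12, with 8 genes above 0, while the median of all genes was 0.03 and that of the non-targeting guides 0.11.

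DMSO and Taxol cultures were each also compared with AP, to ask what growth alone and growth in the drug did to the guides. These comparisons share the AP libraries, so they are not independent of each other. In DMSO against AP no NuRD gene was called, where 2.31% of genes were depleted and 0.128% enriched after adjustment. At an unadjusted RRA p under 0.05, 0 of 12 were depleted (11.6% of genes) and 2 enriched, HDAC2 and MBD2 (8.47% of genes). The libraries stood apart for 5 genes on the higher side, HDAC1, HDAC2, MTA1, MBD2 and GATAD2B, and for CHD4 on the lower side, beside 29.3% and 14.1% of all genes. By limma on the gene means, HDAC2, MTA1 and MBD2 were higher at an unadjusted p under 0.05 (12.5% of genes) and none was lower (8.73%). At the guide level, 5 of 120 were higher and 2 lower (3.16% and 3.64% of guides).

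In Taxol against AP again no NuRD gene was called, where 4.88% of genes were depleted and 1.41% enriched. At the unadjusted RRA threshold CHD4 was depleted (13% of genes) and MTA1, MBD2 and CHD5 were enriched (8.47% of genes). CHD4 alone was lower in every Taxol library (14.5% of genes), and 7 genes were higher in every one (32.3% of genes), namely HDAC1, HDAC2, MTA1, MTA2, MBD2, MBD3 and GATAD2B. limma on the gene means placed 6 higher at an unadjusted p under 0.05 (16.9% of genes) and none lower (6.29%). Here 6 guides were higher and 1 lower (2.2% and 3.92% of guides).

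Most NuRD genes lay above AP in both cultures on the deposited scale. The median log2 difference over the 12 genes was 0.36 in DMSO, with 9 above 0, and 0.60 in Taxol, with 11 above 0, while the medians of all genes were 0.15 and 0.20. Of the guides of all genes, 43.5% in DMSO and 42.5% in Taxol were lower than in AP. The non-targeting guides had medians of 0.43 and 0.68 in the same comparisons. A gene value is a mean over guides, while these are medians of single guides. Of the 12 genes, 4 in DMSO and 2 in Taxol (MTA1 and MBD2) exceeded them. In Taxol 97.4% and 92.2% of all genes were lower than these 2. In DMSO at least 89.7% were lower than each of the 4 (CHD5, HDAC2, MTA1 and MBD2). When every library was scaled to the same total, the median of all genes moved by -0.31, -0.38 and -0.74 in Taxol against DMSO, DMSO against AP and Taxol against AP, and the number of NuRD genes above 0 became 2, 4 and 1. Centring on the non-targeting guides moved it by -0.17, -0.31 and -0.53, with 6, 8 and 8 NuRD genes above 0. Relative to the median of all genes, 7, 9 and 11 of the 12 genes were higher on each of these scales. The share of genes with a lower value is therefore given below for some differences of CHD4, HDAC2, MTA1 and MTA2. In Taxol against AP it was also 88.3% for CHD5, 87.8% for HDAC1, 89.9% for GATAD2B and 53.1% for GATAD2A. In DMSO against AP it was 94.4% for MTA1, 97.6% for MBD2 and 35.3% for GATAD2A.

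Among the ATPases, CHD4, the catalytic subunit of most NuRD in dividing cells, had the lowest log2 difference from AP of the NuRD genes in both cultures. Its gene value was 8.67 and 8.53 in AP 1 and AP 3 against 8.26, 8.31 and 8.12 in DMSO 1 to 3, a log2 difference of -0.37 ± 0.10 (SD, n = 3 and 2) with a 95% limma interval of -0.83 to 0.09. In the comparison with Taxol the values were 8.28 and 8.15 in AP against 7.95, 8.07 and 7.48 in Taxol, a difference of -0.38 ± 0.26 (interval -0.87 to 0.10). All libraries of both cultures were thus below both AP libraries, and 12.5% of genes were lower than CHD4 in DMSO and 9.24% in Taxol. The exact RRA depletion p was 0.0566 in DMSO (adjusted p = 0.432) and 0.0124 in Taxol (adjusted p = 0.161). Without AP 3 the second of these exact p-values was 0.0773, while without AP 1, DMSO 1 or DMSO 3 the first was 0.0168, 0.0162 or 0.0315. Without Taxol 1, 2 or 3 the exact RRA depletion p in Taxol against AP was 0.0414, 0.00387 or 0.0351 (adjusted p at least 0.0722). Between Taxol and DMSO, CHD4 differed by -0.06 (interval -0.50 to 0.38), with 5 guides lower and 5 higher. The CHD4 difference from AP in Taxol was -0.21 without Taxol 3, and that from DMSO was -0.18 without Taxol 2 and 0.12 without Taxol 3.

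The guides of CHD4 did not move as one. Guide epikol_v2_1295 had 449 and 216 normalized counts in AP and 69.7, 109 and 68.2 in DMSO, a log2 difference of -1.94 ± 0.68 (SE). Guide epikol_v2_1298 had 212 and 204 in AP and 56.0, 121 and 58.6 in DMSO, a difference of -1.49. In these guides every DMSO library lay under both AP libraries, at limma adjusted p-values of 0.706 and 0.724. The lowest in Taxol was epikol_v2_1297, at 162 and 108 in AP and 52.4, 41.5 and 35.9 in Taxol, resting on 69, 17 and 15 reads, with a difference of -1.61 ± 0.47 (SE, adjusted p = 0.735). This guide was at 611, 44.0 and 146 in DMSO in the comparison of the cultures, so its low value there (log2 difference -1.98) came with overlapping libraries. At the other end, epikol_v2_1296 was at 725 and 561 in AP and at 5763, 672 and 575 in Taxol, its high mean coming from Taxol 1. Guide epikol_v2_1295, low in all DMSO libraries, was at 1534 in Taxol 2 and at 95.8 and 86.3 in Taxol 1 and Taxol 3. Of the 10 guides, 6 were lower than AP in DMSO and 7 in Taxol, beside 43.5% and 42.5% of the guides of all genes.

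On the deposited scale CHD3 and CHD5, the alternative ATPases, lay on the other side of AP, as did the median of the non-targeting guides. CHD5, which is mainly known from neurons, had gene values of 7.18 and 8.00 in AP 1 and AP 3 and 8.35, 7.97 and 8.27 in Taxol 1 to 3, a log2 difference of 0.61 ± 0.37. The exact RRA enrichment p was 0.0206 (adjusted p = 0.402), and AP 3 lay within the Taxol libraries. Leaving out AP 1 gave a CHD5 difference of 0.20 and leaving out AP 3 gave 1.02, and without Taxol 1, 2 or 3 the exact p was 0.051, 0.0983 or 0.439. Under equal totals the CHD5 difference was -0.13, and centred on the non-targeting guides it was 0.09. CHD3 had 8.42 and 9.13 in AP and 9.39, 8.92 and 9.21 in Taxol, a difference of 0.39 ± 0.35, which was 0.04 without AP 1. The CHD3 difference was -0.35 under equal totals and -0.13 centred on the non-targeting guides. In DMSO against AP the differences were 0.35 ± 0.32 for CHD3 and 0.50 ± 0.35 for CHD5, and without AP 1 they were -0.002 and 0.10. Under equal totals these DMSO differences were -0.03 for CHD3 and 0.12 for CHD5. Without AP 3 CHD3 was at 0.70 in DMSO and 0.75 in Taxol, and CHD5 at 0.91 in DMSO. A CHD5 guide, epikol_v2_1304, was at 62.9 and 209 in AP and 471, 334 and 235 in DMSO (1.53, limma adjusted p = 0.732).

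Between Taxol and DMSO the differences were -0.003 for CHD3 and 0.06 for CHD5, with intervals of -0.48 to 0.47 and -0.37 to 0.50. Leaving out Taxol 1 or Taxol 2 gave -0.11 or 0.12 for CHD3 and -0.01 or 0.17 for CHD5. One CHD3 guide, epikol_v2_1289, was at 1749, 3729 and 799 in DMSO and 432, 581 and 823 in Taxol (log2 difference -1.55, limma adjusted p = 0.965), with Taxol 3 above DMSO 3. The opposite end of the gene was epikol_v2_1282, at 228, 165 and 203 in DMSO and 531, 213 and 1345 in Taxol (1.44).

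Of the deacetylases, HDAC2 had the highest log2 difference of the NuRD genes in DMSO against AP. Its gene value was 9.70 and 9.85 in AP and 10.85, 10.84 and 9.87 in DMSO 1 to 3, a log2 difference of 0.74 ± 0.46 (interval 0.18 to 1.31), and 97.9% of genes were lower. The exact RRA enrichment p was 0.011 (adjusted p = 0.302), and 9 of 10 guides were higher, while 43.5% of the guides of all genes were lower. DMSO 3 was close to the AP libraries, and the difference without it was 1.07 (exact p = 0.000784, adjusted p = 0.122). Without DMSO 1 the difference was 0.58 (exact p = 0.141), and without DMSO 2 it was 0.59 (exact p = 0.00482). HDAC1, its close paralog, had 9.52 and 9.87 in AP and 10.06, 10.04 and 10.10 in DMSO, a difference of 0.37 ± 0.14 that was 0.20 without AP 1. In Taxol against AP both stood higher in every library, HDAC1 by 0.61 ± 0.30 and HDAC2 by 0.60 ± 0.41, below the median of the non-targeting guides. Without Taxol 1 the HDAC2 difference from AP was 0.32.

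Under Taxol the values of HDAC2 were spread between libraries. Next to DMSO it was at 10.43, 10.32 and 9.45 in DMSO 1 to 3 and at 10.44, 9.62 and 9.57 in Taxol 1 to 3, a log2 difference of -0.19 ± 0.52 (interval -0.81 to 0.43). Guide epikol_v2_2517 reached 9880 normalized counts in Taxol 1, 0.119% of that library and the largest share of any NuRD guide in any library, and was at 1043 and 865 in Taxol 2 and Taxol 3 and at 1338, 2777 and 848 in DMSO. Guide epikol_v2_2519 was at 9628 in Taxol 1 and at 1165 and 1503 in the others. Without Taxol 1 the HDAC2 difference was -0.47, with an exact RRA depletion p of 0.0156 (adjusted p = 0.577). It was -0.50 without DMSO 3 and -0.01 to -0.06 without DMSO 1, DMSO 2, Taxol 2 or Taxol 3. HDAC1 was at 9.64, 9.53 and 9.67 in DMSO and 9.74, 9.53 and 10.15 in Taxol, a difference of 0.19 ± 0.23 that was 0.02 without Taxol 3 and 0.33 without Taxol 2. Its guide epikol_v2_2485 had the highest log2 difference of any NuRD guide in Taxol against AP, 2.33, at 176 and 356 in AP and at 3001, 322 and 2096 in Taxol, where Taxol 2 lay under AP 3.

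The MTA scaffolds held the highest NuRD log2 differences both in Taxol against DMSO and in Taxol against AP. MTA2 had gene values of 8.97, 9.02 and 8.73 in DMSO 1 to 3 and 9.96, 9.44 and 9.14 in Taxol 1 to 3, a log2 difference of 0.61 ± 0.31 (interval 0.10 to 1.11). All Taxol libraries were above all DMSO libraries, 9 of 10 guides were higher, and 98.1% of genes had a lower value. Of the guides of all genes, 47.9% were lower in this comparison. The differences within replicates 1, 2 and 3 were 0.99, 0.42 and 0.41. The exact RRA enrichment p was 0.0171 (adjusted p = 0.535), and limma on the gene means gave an adjusted p = 0.723. Without DMSO 1, DMSO 2, DMSO 3 or Taxol 2 the exact p was 0.0823, 0.44, 0.238 or 0.0652, and without Taxol 1 or Taxol 3 it was 0.00705 or 0.00877. It was 0.00829 with the replicate block, 0.00789 centred on the non-targeting guides, 0.00799 under equal totals and 0.0563 with array quality weights. The lowest adjusted RRA p of MTA2 in any setting of this comparison was 0.389. Without Taxol 1 the difference was 0.38, and under equal totals it was 0.29.

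Guides of MTA2 reached their high values in different libraries. Guide epikol_v2_3839 was at 428, 283 and 338 in DMSO and at 243, 4094 and 3462 in Taxol, a log2 difference of 2.13 ± 0.93 (SE, limma adjusted p = 0.965). Taxol 1 was thus its lowest library. Guides epikol_v2_3838, epikol_v2_3834 and epikol_v2_3831 showed the opposite order, at 4121, 4586 and 3995 in Taxol 1 and between 337 and 575 in Taxol 2 and Taxol 3. Guide epikol_v2_3832 alone was lower on average, at 494, 1868 and 561 in DMSO and 249, 681 and 368 in Taxol. Against AP, MTA2 was at -0.02 ± 0.16 in DMSO (interval -0.46 to 0.42) and at 0.63 ± 0.34 in Taxol, where the exact RRA enrichment p was 0.603 although every Taxol library was above both AP libraries. Without Taxol 1 that difference in Taxol was 0.41, and the one in DMSO ran from -0.11 without DMSO 2 to 0.08 without DMSO 3. Relative to the median of the non-targeting guides, MTA2 was at -0.45 in DMSO and -0.05 in Taxol. Centred on these guides, its differences from AP were -0.33 in DMSO and 0.10 in Taxol.

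MTA1, the founding member of the family, had the highest log2 difference of the NuRD genes in Taxol against AP. Its values were 8.17 and 8.51 in AP and 9.59, 9.17 and 9.04 in Taxol, a log2 difference of 0.93 ± 0.27 (interval 0.43 to 1.42), and 97.4% of genes were lower. All 10 guides were higher, with log2 differences from 0.14 to 1.92, while 42.5% of the guides of all genes were lower. The non-targeting guides had a median of 0.68 and a 10th percentile of -0.11. The exact RRA enrichment p was 0.00271 (adjusted p = 0.110), and limma on gene means gave an adjusted p = 0.0744. The difference was 0.24 above the median of the non-targeting guides, and under equal totals it was 0.19. With array quality weights MTA1 passed adjustment (adjusted p = 0.0195), the sole NuRD call in any setting run. Centred on the non-targeting guides the exact RRA p was 0.0186 (adjusted p = 0.400), and under equal totals 0.0195 (adjusted p = 0.433). With the replicate block it was 0.0648 (adjusted p = 0.661). Without AP 3 the difference was 1.10. In DMSO against AP the gene was at 8.56 and 8.89 in AP and 9.17, 9.65 and 9.16 in DMSO, a difference of 0.60 ± 0.27 (interval 0.13 to 1.08) with an exact RRA p of 0.055. In Taxol against DMSO it differed by 0.28 ± 0.26 (interval -0.20 to 0.76), with 7 of 10 guides higher, and by 0.11 without Taxol 1.

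The MTA1 guides that passed the unadjusted threshold against AP had no overlap between the groups. Guide epikol_v2_3821 was at 99.6 and 406 in AP and at 1212, 894 and 415 in Taxol (log2 difference 1.92). Guide epikol_v2_3823 was at 257 and 461 in AP and at 571, 952 and 1943 in Taxol (1.56). Guide epikol_v2_3829 was at 175 and 135 in AP and at 247, 386 and 388 in Taxol (1.11), and it was also higher in all DMSO libraries, at 306, 965 and 845 beside 229 and 176 in AP (1.65). The limma adjusted p was 0.735 for each in Taxol and 0.721 for the last in DMSO. The weakest guide of the gene was epikol_v2_3830, at 87.7 and 93.8 in AP and 63.1, 127 and 125 in Taxol.

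MTA3, the remaining scaffold, gave 0.18 ± 0.51 in Taxol against DMSO, 0.35 ± 0.37 in DMSO against AP and 0.58 ± 0.48 in Taxol against AP, with exact RRA p-values above 0.05 in both directions. Its Taxol libraries were at 9.65, 9.27 and 8.50 beside 8.53 and 8.59 in AP, so Taxol 3 lay under both AP libraries. These MTA3 differences moved with single libraries. The one between Taxol and DMSO was -0.08 without Taxol 1, -0.04 without DMSO 3 and 0.50 without Taxol 3. In DMSO against AP it was 0.14 without DMSO 2 and 0.59 without DMSO 3, and in Taxol against AP 0.32 without Taxol 1 and 0.90 without Taxol 3. Guide epikol_v2_3843 was at 104 and 248 in AP and 415, 1018 and 277 in DMSO (1.60, limma adjusted p = 0.724).

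MBD2, the methyl-CpG-binding alternative to MBD3, was enriched against AP at the unadjusted threshold in both cultures. It was at 8.51 and 8.81 in AP and at 9.16, 10.04 and 8.94 in DMSO, a log2 difference of 0.72 ± 0.49 (interval 0.15 to 1.29), with an exact RRA p of 0.0479 (adjusted p = 0.574). DMSO 2 stood above the other DMSO libraries, and without it the difference was 0.39 (exact p = 0.243), while without AP 1 it was 0.57 (exact p = 0.127). In the comparison of Taxol with AP it was at 8.12 and 8.43 in AP and 9.49, 8.43 and 9.004 in Taxol, a difference of 0.70 ± 0.45 with an exact RRA p of 0.00972 (adjusted p = 0.291). Taxol 2 and AP 3 were nearly level. Without Taxol 1 or Taxol 3 that exact p was 0.174 or 0.0558. It was 0.0861 centred on the non-targeting guides, 0.142 under equal totals, 0.356 with array quality weights and 0.0377 with the replicate block. Under equal totals the difference was -0.04, while without Taxol 1 it was 0.44 and without AP 1 it was 0.55. On the deposited scale the difference was 0.02 above the median of the non-targeting guides. Guide epikol_v2_3538 was at 155 and 292 in AP and 1097, 457 and 515 in Taxol (1.57, limma adjusted p = 0.735).

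In Taxol against DMSO the mean and the rank test of MBD2 pointed to different guides. The gene was at 8.74, 9.53 and 8.52 in DMSO and 9.38, 8.32 and 8.88 in Taxol, a difference of -0.07 ± 0.53 (interval -0.60 to 0.46), and 6 of 10 guides were higher, while the exact RRA depletion p was 0.0428 (adjusted p = 0.959). The guide with the lowest rank was epikol_v2_3532, at 1086, 2134 and 552 in DMSO and 224, 294 and 242 in Taxol, a log2 difference of -2.11 ± 0.65 (SE, limma adjusted p = 0.965), with no overlap. This was the lowest of the 120 guides in that comparison, in the lowest 0.102% of all guides by its moderated statistic. The same guide was at 598 and 536 in AP and 1454, 3054 and 743 in DMSO on the scale of the other comparison (1.39), and the DMSO libraries are shared by both. At the other end, epikol_v2_3533 was at 463, 356 and 674 in DMSO and 1633, 337 and 3083 in Taxol (1.31). Within replicates 1, 2 and 3 the gene difference was 0.64, -1.21 and 0.37. Without DMSO 2 or Taxol 2 it was 0.23 or 0.20, and without Taxol 1 it was -0.33 (exact RRA depletion p = 0.0474). Without DMSO 1, 2 or 3 or Taxol 2 or 3 that exact p was 0.162, 0.236, 0.0563, 0.0694 or 0.0651.

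MBD3, which in mammals has lost most of the affinity for methylated DNA, gave 0.02 ± 0.32 in Taxol against DMSO (interval -0.48 to 0.51), 0.37 ± 0.33 in DMSO against AP and 0.43 ± 0.23 in Taxol against AP, with no exact RRA p under 0.05. In Taxol every library was above AP (9.22, 8.90 and 9.45 beside 8.74 and 8.78). The MBD3 difference between Taxol and DMSO was -0.18 without DMSO 3 and 0.18 without DMSO 2, and that between DMSO and AP was 0.59 and 0.18 without the same libraries. Guide epikol_v2_3547 was at 448 and 460 in AP and 855, 2897 and 835 in DMSO (1.49, limma adjusted p = 0.724).

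The bridging subunits did not reach the unadjusted RRA threshold in any comparison. GATAD2B was at 9.13 and 9.18 in AP and 10.06, 9.40 and 9.93 in Taxol. The log2 difference was 0.64 ± 0.29 (interval 0.08 to 1.21, exact RRA p = 0.0818), below the median of the non-targeting guides (0.68). Of its guides 9 of 10 were higher, while 42.5% of the guides of all genes were lower. GATAD2B guide epikol_v2_2373 was at 546 and 593 in AP and 3996, 1306 and 1373 in Taxol (1.76, limma adjusted p = 0.735). In Taxol against DMSO GATAD2B was at 9.41, 9.28 and 9.42 in DMSO and 9.95, 9.29 and 9.81 in Taxol, a difference of 0.31 ± 0.25 with an exact RRA p of 0.0713. Without Taxol 1 it was 0.18 and without Taxol 2 it was 0.51. Within each replicate number the GATAD2B difference was above 0, as for HDAC1 and MTA2 and for 16.9% of all genes. In replicates 1, 2 and 3 it was 0.54, 0.01 and 0.39 for GATAD2B and 0.10, 0.001 and 0.47 for HDAC1, so both were nearly level in replicate 2. GATAD2A stayed near AP, at -0.01 ± 0.26 in DMSO and 0.24 ± 0.19 in Taxol, and gave 0.21 ± 0.21 in Taxol against DMSO, which was 0.07 without DMSO 1. Without AP 1 or AP 3 its difference from AP was -0.18 or 0.15 in DMSO and 0.07 or 0.41 in Taxol. Its guide epikol_v2_2366 was at 294, 232 and 262 in DMSO and 612, 357 and 990 in Taxol (1.20), and epikol_v2_2367 at 956, 669 and 974 in DMSO and 634, 518 and 632 in Taxol (-0.53), both without overlap and neither past the unadjusted threshold.

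The 10 guides of a gene share their target and are not replicates, and they spread widely. In Taxol against DMSO, the SD over the guides of a NuRD gene was 0.48 to 1.01, with a median of 0.60 beside 0.64 for all genes. A guide that was at least 3-fold higher in 1 Taxol library than in either of the others was found for 30 of the 120 NuRD guides (25%) and for 18.4% of the guides of all genes, and in 21 of the 30 the high library was Taxol 1 (17.5% of the NuRD guides, and 10.2% of all). In DMSO this held for 20 guides (16.7%, and 14.5% of all). MTA2 had 4 such guides in Taxol 1 and MTA3 had 3, the most of any NuRD gene there. The part of such single-library values in the gene differences was not tested beyond leaving out each library.

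Genes outside the 12 whose products belong to NuRD, work with it or resemble its subunits were read from lists of other family members. Of 10 histone-binding and accessory genes listed 6 were measured, and RBBP4 and RBBP7, the histone chaperones that NuRD shares with several other complexes, were depleted in Taxol against AP. RBBP4 fell by 0.80 on the log2 scale (SD 0.22, 10 of 10 guides lower, adjusted RRA p = 0.0222, exact null) and RBBP7 fell by 0.86 (SD 0.06, 9 of 10 lower, adjusted RRA p = 0.0025), and both kept this direction and call under the other scalings. In DMSO against AP they were at -0.65 and -0.37 (adjusted 0.0752 and 0.24), and in Taxol against DMSO at -0.19 and -0.54 (adjusted 0.973 and 0.906). The other 4, ZMYND8, ZNF592, ZNF687 and KDM1A, were called in no comparison. Nor was any of the 5 other methyl-CpG-binding genes, whose median log2 differences were 0.07, 0.38 and 0.54 in Taxol against DMSO, DMSO against AP and Taxol against AP.

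Among the other class I deacetylases, HDAC3, the catalytic subunit of the NCoR-SMRT corepressors, was at -0.83 ± 0.27 in DMSO against AP (8 of 10 guides lower, exact RRA null, adjusted p = 0.0565) and at -0.61 ± 0.07 in Taxol against AP (adjusted 0.201), while HDAC8 was at 0.22 and 0.31. Of the 6 other CHD remodellers, CHD1 was enriched in Taxol against AP by 0.99 ± 0.56 (9 of 10 guides higher, adjusted p = 0.0258), and by 0.25 under equal totals, where the call held. In Taxol against DMSO, CHD1 and CHD2 were at 0.82 and 0.90 (adjusted 0.104 and 0.0754) and CHD8 at -0.72 (adjusted 0.312). Centred on the non-targeting guides, CHD2 passed there (difference 0.73, exact RRA null, adjusted p = 0.0495). For reference, guides against ABCB1, a pump that exports Taxol, fell by 0.87 on the log2 scale in Taxol against DMSO (SD 0.33, 9 of 10 lower, adjusted p = 0.0287). ABCB1 was found in the study with these same samples, so it is no independent check.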

How the data were processed

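The authors' deposited guide tables hold normalized counts, 1 table for each of the 3 comparisons, scaled separately, in which 1 cell strings together the libraries of a group. MAGeCK 0.5.8 is the tool that the submitters' processing notes name. The aligner is not given in the sources used here. The authors' fold changes, scores and p-values were not used. AP cells hold 3 values, of which values 1 and 3 were taken as AP 1 and AP 3. This, and the order within other cells, is an assumption, and 2 value columns were unused. Depth was recovered from the step of 1 read (98.98% to 99.99% of values whole within 0.1 read).

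Per guide, log2(normalized count + 1), which understates changes of rare guides, was fitted by limma 3.58.1 in R 4.3.3 with no covariates and a mean-variance trend. Genes were tested by alpha-RRA on the top 25% of ranks, one-sided in each direction, with p from the exact null of random ranks, which treats guides as independent, and adjusted over 779 genes with at least 3 guides. It was run on simulated data in which all guides of a gene shared the same change. The guides of a gene disagree here, so that run does not show its power in these data. Members and lists were chosen with earlier results of these data known. All members are named. Guides are named by p and separation of the groups, or as the strongest or weakest of a gene. HDAC2 epikol_v2_2517, MTA2 epikol_v2_3831, epikol_v2_3834 and epikol_v2_3838, and epikol_v2_1295 in Taxol were chosen after their values were seen. Same-numbered Taxol and DMSO libraries deviated together (correlations 0.169, 0.131 and 0.206 over guides), so the numbers pair them if the order holds. AP pairs gave -0.02 to 0.04.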

Additional observations from a re-analysis of the deposited data

How the results depend on the processing

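No NuRD gene passed adjustment in any alternative run, except 1 enriched in Taxol against AP with array quality weights (MTA1). The counts of NuRD genes and guides past the unadjusted p of 0.05 did move, and the percent after a guide count is the share of the guides of all genes past it in the same setting. Only 2 AP libraries were used, so leaving 1 out assumes that the other varies like the rest, and under 100 reads a guide's level is imprecise. The causes of the shifts were not tested.

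In Taxol against DMSO, equal totals gave 2 genes depleted, 2 guides higher (1.03%) and a median log2 difference of -0.19. Array quality weights gave 0 genes enriched and 2 guides higher (2.35%), the replicate block 3 guides higher (3.02%), an RRA limit of 10% 0 genes enriched, and limma on gene means 0 genes depleted. Leaving out a library gave 0 to 2 genes depleted, 0 to 1 enriched, 1 to 4 guides lower (0.913% to 2.64%), 0 to 4 guides higher (1.39% to 3.51%) and a median of -0.01 to 0.20.

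In DMSO against AP, centring on the non-targeting guides gave 0 guides higher (0.72%) and a median of 0.053, and equal totals 0 guides higher (0.849%) and a median of -0.021. Array quality weights gave 9 guides higher (5.27%). The replicate block, here on numbers that share only a label, gave 1 gene enriched and 2 guides higher (5.11%), and replicates 1 and 3 alone without the block 2 guides higher (4.41%). An RRA limit of 10% gave 0 genes enriched. Leaving out a library gave 0 to 1 genes depleted, 1 to 3 enriched, 0 to 2 guides lower (1.35% to 4.12%), 0 to 10 guides higher (0.231% to 5.83%) and a median of 0.23 to 0.47.

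In Taxol against AP, centring gave 6 guides lower (10.5%), 0 higher (0.592%) and a median of 0.078. Equal totals gave 1 gene enriched, 6 guides lower (10.6%), 1 guide higher (0.566%) and a median of -0.14. Genes enriched were 1 with array quality weights, 1 with an RRA limit of 10%, 1 with guides ranked by log2 difference and 6 by limma on gene means, which gave 0 depleted. The replicate block gave 12 guides higher (5.67%), and replicates 1 and 3 alone without it 4 guides lower (4.27%). Leaving out a library gave 1 to 4 genes enriched, 0 to 1 depleted, 1 to 4 guides lower (1.94% to 4.64%), 0 to 13 guides higher (0.103% to 4.62%) and a median of 0.41 to 0.70. Of the values of single genes under the alternatives, 402 stayed within the spread between libraries and 66 moved by more, under the scalings, the median over guides or without an AP library.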
